A study of Mus musculus with 18 samples.

Results

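The insulin-like growth factor (IGF) binding proteins and their partners were followed in RNA-seq of 2 mouse mammary tumour cell lines. The group held 9 genes, taken by symbol from the 24360 symbols of each count table. They were the ligand *Igf1*, the binding proteins *Igfbp2*, *Igfbp3*, *Igfbp4*, *Igfbp5*, *Igfbp6* and *Igfbp7*, the receptor *Igf2r* and the proteinase *Pappa*. The rule uses symbols and no measured value. Both lines, 168FARN and 67NR, served in the study as non-metastatic models. Both were grown in DMEM with serum. Each line was measured as WT, *Kmt2c* KO and *Kmt2d* KO cells, with 3 replicates of each of the 6 groups and 18 libraries in all. *Kmt2c* and *Kmt2d* encode enzymes that methylate lysine 4 of histone H3, and the comparisons ask how gene expression differs once either is disrupted. The KO cells were pools rather than clones. They had received *Cas9* and sgRNAs against the first exon of *Kmt2c* or *Kmt2d* and had been sorted for the fluorescent markers of both plasmids. The column names give the 168FARN WT libraries as control sgRNA, whereas those of 67NR WT name no sgRNA. Whether 67NR WT cells were transfected and sorted is not given in the labels. Any effect of these steps in 67NR therefore cannot be told apart from that of a knockout.

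IGF1 and IGF2 are secreted growth factors that signal through IGF1R and the insulin receptor. The binding proteins hold IGFs outside the cell, prolong their life and limit their access to IGF1R, and proteinases that cut a binding protein set the ligand free. IGF2R carries IGF2 into the cell for degradation and sorts lysosomal enzymes, without a kinase of its own. In the mammary gland, IGF signalling supports the growth and survival of the epithelium, and IGFBP5 is known for its rise during involution after lactation.

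Only 4 of the 9 genes had enough counts to be tested. In 67NR, 3 of these 4 changed in both knockouts, where 35.3% of all genes tested changed with *Kmt2c* KO and 25.5% with *Kmt2d* KO. *Igfbp7*, which encodes a secreted protein of the matrix with weak affinity for IGFs, was 5.83-fold lower in *Kmt2c* KO and 4.52-fold lower in *Kmt2d* KO cells than in WT cells. *Igfbp6*, whose protein prefers IGF2 over IGF1, was 6.14-fold and 5.65-fold higher, from a very low level. *Igf2r* was 1.6-fold and 1.62-fold lower. *Igfbp4* was measured at a high level in every group and was not called in either knockout of 67NR. The other 5 genes had 0 counts or a handful of counts in every library.

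Positions are given in mm9, the genome build of the files, from the GENCODE M1 annotation. *Igfbp2* (chr1:72871077-72899048, plus strand) and *Igfbp5* (chr1:72904506-72921458, minus strand) lie tail to tail, 5458 bases apart. *Igfbp3* (chr11:7106089-7113926, minus strand) lies 3540 bases from *Igfbp1*, also tail to tail. *Igfbp4* is at chr11:98902558-98913969 on the plus strand, *Igfbp6* at chr15:101974793-101979942 on the plus strand and *Igfbp7* at chr5:77778265-77837070 on the minus strand. *Igf1* is at chr10:87321010-87399792 on the plus strand, *Igf2r* at chr17:12875272-12962530 on the minus strand and *Pappa* at chr4:64785208-65018543 on the plus strand. The exons of *Igfbp7* share 85 bases, 7.01% of the gene's exon bases, with exons of *Polr2b* and of AC141469.5 on the other strand. *Airn*, a long RNA on the strand opposite to *Igf2r*, overlaps that gene with 0 shared exon bases. The libraries were strand-specific, but whether strand was used in counting is not given in the sources used here, so reads from the shared bases cannot be assigned with certainty.

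The 250 bases before the start of transcription are shown for the 4 members with expression and for *Igfbp3*, since these set members of high, changing and undetected level side by side. The sequences and starts are from the RefSeq promoter table (GRCm38.p6), and each was found exactly once in mm9. For *Igfbp6* and *Igf2r* the RefSeq start lies upstream of the GENCODE start of the gene given above, so their windows do not adjoin it. Capitals mark matches, on either strand, to 5 motifs that were searched: GGGCGG (the GC box), TATAAA (the TATA box), CAGGTG (an E-box), TGANTCA (the AP-1 site) and GGAATG (the TEAD site).
Igfbp4: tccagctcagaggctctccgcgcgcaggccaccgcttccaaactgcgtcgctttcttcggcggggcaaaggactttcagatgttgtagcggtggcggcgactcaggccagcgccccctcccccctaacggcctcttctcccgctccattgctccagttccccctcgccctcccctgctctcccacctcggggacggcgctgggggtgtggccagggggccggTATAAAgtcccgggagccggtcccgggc
Igfbp6: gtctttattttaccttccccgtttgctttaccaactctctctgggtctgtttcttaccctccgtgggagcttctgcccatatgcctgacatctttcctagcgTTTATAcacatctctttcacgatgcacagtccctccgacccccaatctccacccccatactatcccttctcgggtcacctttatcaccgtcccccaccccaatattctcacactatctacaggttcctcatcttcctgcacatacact
Igfbp7: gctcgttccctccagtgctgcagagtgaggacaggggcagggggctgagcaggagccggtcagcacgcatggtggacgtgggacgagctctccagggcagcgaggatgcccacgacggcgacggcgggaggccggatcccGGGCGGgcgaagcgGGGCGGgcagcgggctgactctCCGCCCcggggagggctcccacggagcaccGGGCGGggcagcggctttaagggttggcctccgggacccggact
Igf2r: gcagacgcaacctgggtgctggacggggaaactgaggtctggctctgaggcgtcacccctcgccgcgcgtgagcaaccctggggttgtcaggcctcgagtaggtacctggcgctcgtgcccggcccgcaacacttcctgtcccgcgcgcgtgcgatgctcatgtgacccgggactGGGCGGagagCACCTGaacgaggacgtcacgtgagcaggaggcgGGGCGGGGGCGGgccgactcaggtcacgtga
Igfbp3: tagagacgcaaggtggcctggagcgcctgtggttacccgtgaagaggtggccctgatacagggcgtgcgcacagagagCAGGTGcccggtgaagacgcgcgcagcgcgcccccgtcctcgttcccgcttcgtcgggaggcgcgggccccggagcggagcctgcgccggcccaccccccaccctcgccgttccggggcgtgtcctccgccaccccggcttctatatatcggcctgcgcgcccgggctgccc

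The *Igfbp4* sequence is chr11:98902308-98902557 (plus strand), that of *Igfbp6* chr15:101974367-101974616 (plus strand), that of *Igfbp7* chr5:77837071-77837320 (minus strand), that of *Igf2r* chr17:12962573-12962822 (minus strand) and that of *Igfbp3* chr11:7113927-7114176 (minus strand). *Igfbp7* held 4 GC boxes and *Igf2r* held 3, and 32.7% of the 32851 promoters in the table held at least 1. *Igfbp4* had a TATA box 28 bases before the RefSeq start and *Igfbp6* a match to the same letters 148 bases before it, with a match in 12.4% of all promoters. An E-box was present in *Igf2r* and *Igfbp3*, as in 17.2% of promoters. The AP-1 and TEAD letters, found in 6.75% and 12.6% of promoters, were in none of the 5 windows printed. CpG dinucleotides numbered 22 in *Igfbp4*, 26 in *Igfbp7*, 27 in *Igf2r* and 32 in *Igfbp3*, against 7 in *Igfbp6* and a median of 6 over all promoters. One window of *Igfbp2*, not printed here, also held 3 GC boxes although that gene had 0 counts throughout, and *Igfbp4* and *Igfbp3* had CpG-rich windows.

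Counts on genes ranged from 14359760 to 43427382 per library in 168FARN and from 40951775 to 79251530 in 67NR. Replicate 3 of every group stood apart from the others of its group, and 28.8% of the counts of 67NR *Kmt2d* KO replicate 3 were on the ribosomal precursor *Rn45s*. The mRNA of neither targeted gene was called lower in its own knockout. That of *Kmt2c* was called higher in 67NR *Kmt2c* KO cells and also in 67NR *Kmt2d* KO cells, there at a log2 fold change of 0.8 (adjusted p = 0.0031). In each gene's own knockout, log2 fold changes of *Kmt2c* were -0.18 in 168FARN and 0.63 in 67NR (adjusted p = 1 and 0.0067). Those of *Kmt2d* were 0.71 and 0.22 (adjusted p = 1 and 0.56), so these levels do not check the labels. The paper checked the knockouts by sequencing the targeted regions and by immunoblot, which showed reduced protein in both lines. Its share of mutant reads was lowest in 67NR *Kmt2c* KO cells. Of 8 epithelial markers, 1 exceeded 1 CPM in each 168FARN group, with *Epcam* and *Cldn7* at 0, whereas all 8 did so in each 67NR group. The summed level of these markers in 67NR ran from 3240 to 5000 CPM over WT libraries, from 601 to 1050 CPM over those of *Kmt2c* KO and from 989 to 2130 CPM over those of *Kmt2d* KO cells. Of 10 mesenchymal markers, 8 exceeded 1 CPM in 67NR WT and 9 in each 67NR knockout, and their summed level overlapped, at 3620 to 6410 CPM in WT, 5020 to 7070 CPM over *Kmt2c* KO and 4600 to 6740 CPM over *Kmt2d* KO libraries. Within that list *Vim*, *Zeb1*, *Cdh2*, *Zeb2*, *Twist1*, *Pdgfrb* and *Sparc* were higher in every 67NR KO library than in any WT library, and *Fn1* was lower. The mean of *Vim* was 615 CPM in WT, 3140 CPM with *Kmt2c* KO and 2670 CPM with *Kmt2d* KO, and that of *Zeb1* 5.17, 70.9 and 51 CPM. In 168FARN the mesenchymal sum ran from 8250 to 15000 CPM. Markers of immune cells summed to at most 93.3 CPM and those of endothelial cells to at most 11.9 CPM in any library.

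Levels are given as CPM, each gene's share of a library's counts after TMM scaling over all 18 libraries, unless they are said to be per kb of exon. A call required both a Benjamini-Hochberg adjusted p under 0.1 in edgeR's quasi-likelihood test and a log2 fold change beyond 0.6 in either direction. In each table, 4 of the 9 members passed edgeR's filter on low counts and could be tested. In bulk RNA, fewer cells that express a gene and less RNA per cell cannot be told apart. In 67NR, 1 member was called higher and 2 lower among the 4 tested in *Kmt2c* KO cells, where 35.3% of 13665 genes were called in either direction (17.9% higher and 17.4% lower). The same counts held in *Kmt2d* KO cells, where 25.5% of genes were called (13.9% higher and 11.6% lower). The median log2 fold change of the tested members was -0.11 with *Kmt2c* KO and -0.27 with *Kmt2d* KO, beside -0.02 over all genes in both comparisons. In 168FARN, 0 of 4 members were called in either knockout, where 0.359% of 12253 genes were called with *Kmt2c* KO and 0.286% with *Kmt2d* KO. The 168FARN *Kmt2c* KO and WT libraries overlapped for all 4 members, against 11% of genes with no overlap. In both knockouts of 168FARN, 0 members had an unadjusted p under 0.05 in edgeR and 0 were called by DESeq2, with genotype as the only factor. With replicate number as a block this changed: in *Kmt2c* KO cells 1 member (*Igfbp4*) was called and 3 had an unadjusted p under 0.05, and DESeq2 with the block also called 1. In *Kmt2d* KO cells the block gave 2 members with an unadjusted p under 0.05 and 0 calls in edgeR or DESeq2.

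**Figure D1:**
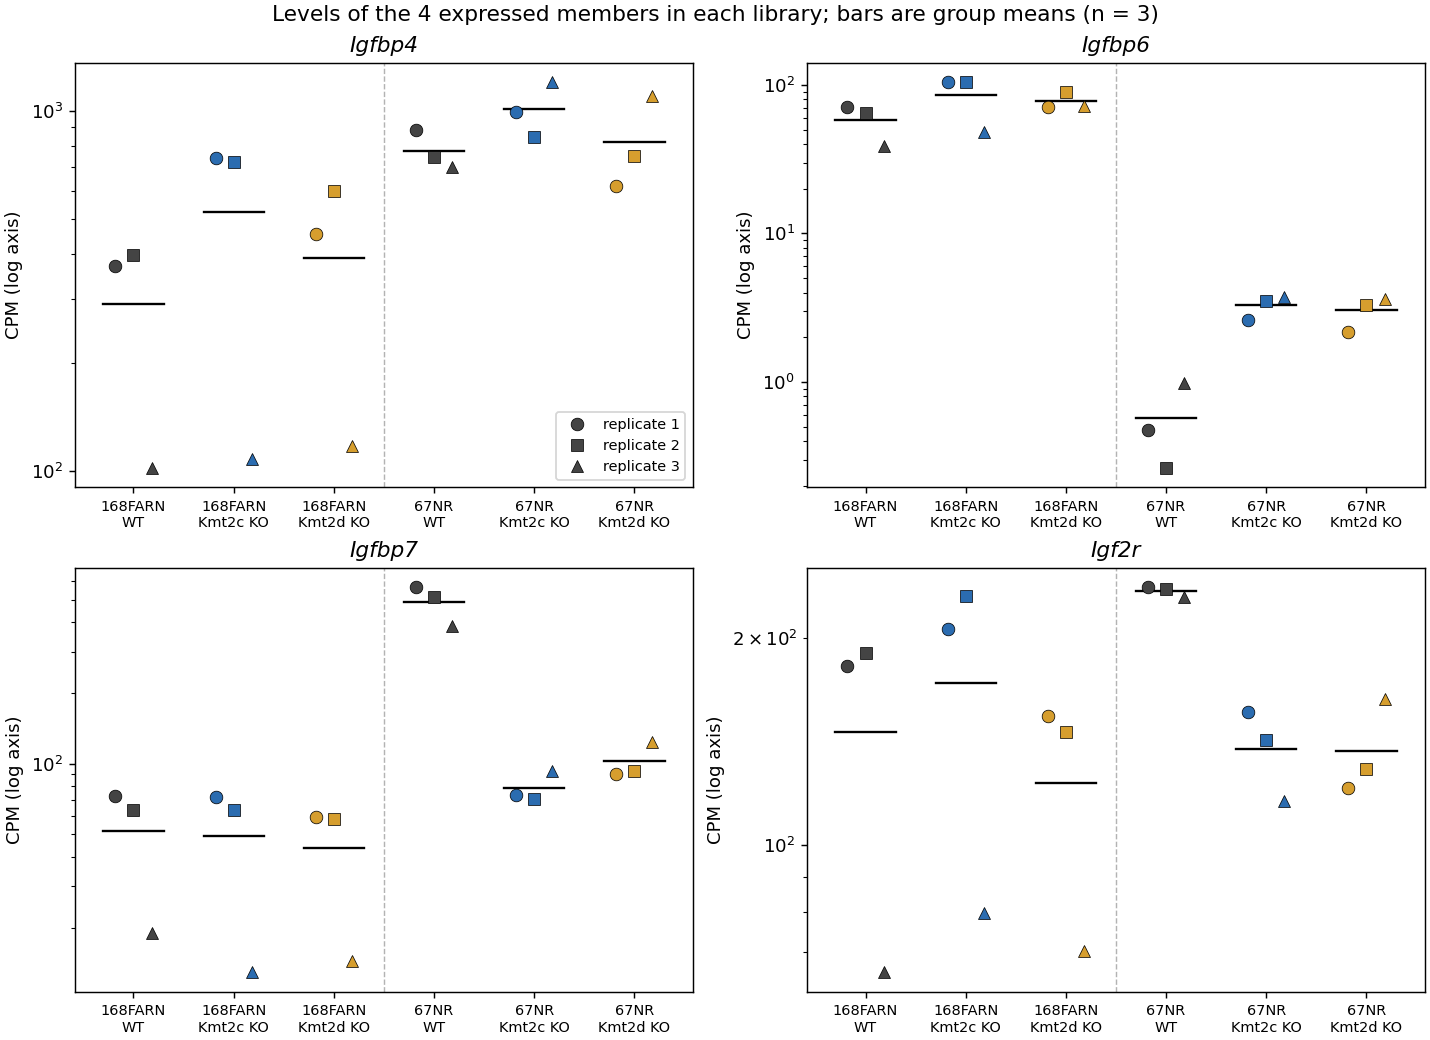
Level of *Igfbp4*, *Igfbp6*, *Igfbp7* and *Igf2r* in CPM (log axis) in each of the 18 libraries, by line and genotype, with a bar at the mean of the 3 replicates. *Igfbp7* in 67NR WT lies at 385 to 566 CPM, above all other groups, and *Igfbp6* in 67NR lies at 0.264 to 3.76 CPM, below all 168FARN libraries.

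The ligand *Igf1* was barely detected. It had 2 counts (0.0236 CPM) in 67NR WT replicate 1, 8 counts (0.184 CPM) in WT replicate 3 and 6 counts (0.0783 CPM) in *Kmt2c* KO replicate 1, with 0 counts in the other 15 libraries, all 9 of 168FARN among them. With so few counts no difference between groups was detectable.

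*Igfbp4*, whose protein blocks IGF action and is cut by the proteinase that *Pappa* encodes, was the most abundant member per kb of exon in every 168FARN group and in the knockouts of 67NR. In 168FARN it stood at 371, 399 and 102 CPM for WT replicates 1 to 3, 740, 720 and 108 CPM for *Kmt2c* KO replicates and 454, 599 and 117 CPM for those of *Kmt2d* KO. Replicate 3 was low in all 3 genotypes, and the groups overlapped. In 67NR it stood at 884, 743 and 698 CPM for WT, 991, 847 and 1200 CPM for *Kmt2c* KO replicates and 620, 747 and 1100 CPM for those of *Kmt2d* KO. These groups overlapped too, and each 67NR library lay above all 168FARN libraries but the 2 highest. Its log2 fold change in 67NR was 0.47 (SE 0.23, adjusted p = 0.16) in *Kmt2c* KO and 0.16 (SE 0.23, adjusted p = 0.69) in *Kmt2d* KO cells.

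In 168FARN *Kmt2c* KO cells the log2 fold change of *Igfbp4* was 0.85 (SE 0.84, adjusted p = 1) with genotype as the only factor. Within replicate numbers, the log2 ratio of CPM + 1 against WT was 0.99, 0.85 and 0.09 for replicates 1, 2 and 3. With replicate number as a block *Igfbp4* was called higher, at a log2 fold change of 0.66 (SE 0.17, adjusted p = 0.027), where 3.66% of genes were called higher. Without the third replicates, which share a collection, the log2 fold change was 0.94 (adjusted p = 9.4e-05). In 168FARN *Kmt2d* KO cells the log2 fold change was 0.44 (SE 0.84, adjusted p = 1).

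*Igfbp6* had the largest difference between the WT lines of the 4 members tested. In 168FARN it stood at 71, 64.8 and 39 CPM for WT replicates 1 to 3, 104, 104 and 48.3 CPM for *Kmt2c* KO replicates and 71.1, 89.8 and 72 CPM for those of *Kmt2d* KO. In 67NR it stood at 0.473, 0.264 and 0.988 CPM for WT, 2.61, 3.51 and 3.76 CPM for *Kmt2c* KO replicates and 2.18, 3.31 and 3.64 CPM for those of *Kmt2d* KO. Every 67NR library lay below every 168FARN library, and every 67NR KO library lay above the 3 WT libraries. The 67NR values rest on 40, 18 and 43 counts in WT, 200, 230 and 160 counts in *Kmt2c* KO and 118, 180 and 145 counts in *Kmt2d* KO libraries. It rose in *Kmt2c* KO cells, at a log2 fold change of 2.62 (SE 0.48, adjusted p = 0.0028), and in *Kmt2d* KO cells, at 2.5 (SE 0.48, adjusted p = 0.0057). The mean in *Kmt2c* KO 67NR cells, 3.29 CPM, was still far below the 58.3 CPM of 168FARN WT cells. In 168FARN its log2 fold changes were 0.56 (SE 0.34) in *Kmt2c* KO and 0.43 (SE 0.34) in *Kmt2d* KO cells, both with an adjusted p of 1, although all 3 *Kmt2d* KO libraries lay above the highest WT library, 1 of them barely. Libraries of the compared groups did not overlap for 10.6% of the genes tested in that comparison. With replicate number as a block, *Igfbp6* in 168FARN was at 0.53 (SE 0.17, adjusted p = 0.08) with *Kmt2c* KO. With *Kmt2d* KO it was at 0.49 (SE 0.18, adjusted p = 0.13), and neither was called. Within replicate numbers its log2 ratio of CPM + 1 was 0.54, 0.68 and 0.3 in *Kmt2c* KO and 0.0032, 0.46 and 0.87 in *Kmt2d* KO cells.

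*Igfbp7* moved the other way in 67NR. It stood at 566, 515 and 385 CPM for WT replicates 1 to 3, 73.6, 70.4 and 93.2 CPM for *Kmt2c* KO replicates and 90.6, 93.3 and 124 CPM for those of *Kmt2d* KO. The lowest WT library was above the highest KO library by a wide margin, and the KO groups overlapped with each other. It fell by 2.54 on the log2 scale (SE 0.21, adjusted p = 2.8e-05) in *Kmt2c* KO and by 2.18 (SE 0.21, adjusted p = 0.00011) in *Kmt2d* KO cells. Within replicate numbers the log2 ratio of CPM + 1 was -2.93, -2.85 and -2.03 in *Kmt2c* KO and -2.63, -2.45 and -1.63 in *Kmt2d* KO cells, so that it was lower in 6 of 6 pairs. Each WT library served for both knockouts, so the 6 pairs are not independent. The summed epithelial markers were also lower in the 67NR knockouts and most mesenchymal markers higher, as given above, and the part of both in the results on *Igfbp7*, *Igf2r* and *Igfbp6* was not tested. *Polr2b*, which shares the exon bases named above, had a mean of 84.4 ± 6.99 CPM in WT cells, 103 ± 10.9 with *Kmt2c* KO and 87.5 ± 10.5 with *Kmt2d* KO (SD, n = 3) and was not called in either knockout.

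In 168FARN, *Igfbp7* was at 73, 63.4 and 19 CPM for WT, 71.8, 63.2 and 12.9 CPM for *Kmt2c* KO replicates and 59.1, 57.9 and 14.5 CPM for those of *Kmt2d* KO. These groups overlapped, with replicate 3 low in each. The log2 fold changes were -0.06 with *Kmt2c* KO and -0.22 with *Kmt2d* KO (SE 0.77 for both, adjusted p = 1 for both). Both 67NR knockouts, with means of 79.1 and 103 CPM, were closer to the 168FARN WT mean of 51.8 CPM than to the 67NR WT mean of 488 CPM.

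The remaining binding proteins, which carry IGFs in serum or tissue, were without reads in the tables. *Igfbp2*, *Igfbp3* and *Igfbp5* were listed at 0 counts in all 18 libraries, and *Igfbp1*, the neighbour of *Igfbp3*, did too. A count of 0 allows a level of up to 3 counts, which is between 0.0355 and 0.215 CPM depending on the library. In all, 5704 of the 24333 symbols shared by the tables were listed at 0 in every library. *Rpl26*, a ribosomal protein gene that cells use throughout, was one of them, so a listed 0 does not by itself show that no RNA was present.

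The proteinase *Pappa* encodes pappalysin 1, which cuts IGFBP4. It had 4 counts (0.0919 CPM) in 67NR WT replicate 3, 6 counts (0.111 CPM) in *Kmt2d* KO replicate 1 and 4 counts (0.0736 CPM) in *Kmt2d* KO replicate 2, with 0 counts in the others. No comparison could be made at these counts.

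*Igf2r* was expressed in all 18 libraries. In 67NR it stood at 237, 235 and 229 CPM for WT replicates 1 to 3, 156, 142 and 116 CPM for *Kmt2c* KO replicates and 121, 129 and 163 CPM for those of *Kmt2d* KO. The 3 WT libraries lay close together and above all 6 KO libraries. It fell by 0.68 on the log2 scale (SE 0.16, adjusted p = 0.011) in *Kmt2c* KO and by 0.69 (SE 0.16, adjusted p = 0.015) in *Kmt2d* KO cells, just past the fold threshold. Without *Kmt2c* KO replicate 3 the log2 fold change in *Kmt2c* KO cells was -0.56 (adjusted p = 0.039), which is under that threshold. *Igfbp6*, *Igfbp7* and *Igf2r* were the members whose 67NR KO and WT libraries did not overlap, for either knockout, and 47.6% of all genes tested with *Kmt2c* KO and 38.9% with *Kmt2d* KO did not overlap.

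In 168FARN, *Igf2r* stood at 182, 190 and 65.3 CPM for WT, 206, 230 and 79.7 CPM for *Kmt2c* KO replicates and 154, 146 and 70.1 CPM for those of *Kmt2d* KO. Replicate 3 was the lowest of each group, and the groups overlapped. Log2 fold changes were 0.24 with *Kmt2c* KO and -0.22 with *Kmt2d* KO (SE 0.53 for both, adjusted p = 1 for both). *Airn*, transcribed across part of *Igf2r* from the other strand, fell by 1.77 on the log2 scale in 67NR *Kmt2c* KO cells (SE 0.32, adjusted p = 0.0025), from 2.5 ± 0.25 to 0.686 ± 0.152 CPM (SD, n = 3), and had a log2 fold change of -0.68 (adjusted p = 0.15) in *Kmt2d* KO cells. Its level was low beside that of *Igf2r*, and its part in the counts of *Igf2r* was not tested.

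**Figure D2:**
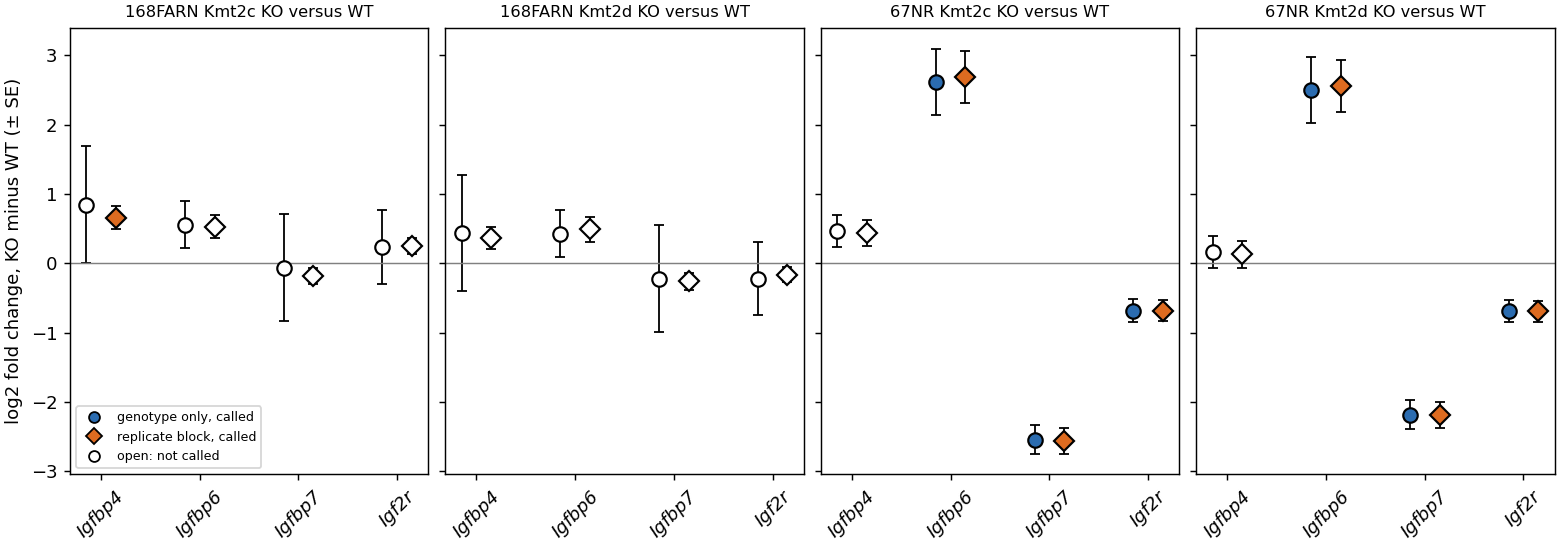
Log2 fold change (KO minus WT) with its SE for the 4 members tested, in each line and knockout, from the fit with genotype only (circles) and with replicate number as a block (diamonds), filled where the gene was called. In 67NR *Igfbp6* is near 2.5 and *Igfbp7* between -2.54 and -2.18, whereas in 168FARN the error bars of the genotype fit are wide and the 1 filled symbol is *Igfbp4* in *Kmt2c* KO with the block, at 0.66.

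Neither line showed a difference between its knockouts that was called for a member. In 67NR, *Kmt2c* KO against *Kmt2d* KO gave log2 fold changes of 0.31 for *Igfbp4*, 0.12 for *Igfbp6*, -0.37 for *Igfbp7* and 0.02 for *Igf2r*, with SEs of 0.23, 0.45, 0.2 and 0.16 and adjusted p-values from 0.57 to 0.99. Over all genes, 1.41% were called in this comparison. In 168FARN the same contrast gave 0.41, 0.12, 0.16 and 0.46 in the same order, each with an adjusted p of 1, and 0.253% of genes were called. In both, with genotype as the only factor, 0 members had an unadjusted p under 0.05 in edgeR and 0 were called by DESeq2. With replicate number as a block, 1 member of 168FARN had an unadjusted p under 0.05. It was *Igf2r*, at a log2 fold change of 0.4 (SE 0.11, adjusted p = 0.056), and it was not called. Libraries of the 2 knockouts overlapped for all 4 members in each line, whereas 19.6% of genes in 67NR and 9.48% in 168FARN had no overlap. These misses do not show that the knockouts act alike, since the SEs of the genotype fit, up to 0.84 in 168FARN, allow sizeable differences.

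The lines themselves differed before any knockout. In 67NR WT against 168FARN WT, *Igfbp6* was 104-fold lower (log2 fold change -6.7, SE 0.49, adjusted p = 4.9e-08) and *Igfbp7* 9.43-fold higher (log2 fold change 3.24, SE 0.63, adjusted p = 0.00076). Of 13882 genes, 22.3% were called higher and 16.9% lower. *Igfbp4* had a log2 fold change of 1.42 (SE 0.65, adjusted p = 0.1) and *Igf2r* of 0.68 (SE 0.41, adjusted p = 0.21), and neither was called. With replicate number as a block both were called higher, *Igfbp4* at 1.59 (SE 0.6, adjusted p = 0.042) and *Igf2r* at 0.8 (SE 0.33, adjusted p = 0.061), where 25.6% of genes were called higher. All 4 members had WT libraries that did not overlap between the lines, as did 46.6% of all genes. Each line had its own table, and line and any difference in handling cannot be told apart. The labels of the WT libraries also differ, with a control sgRNA named for 168FARN only.

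Whether a knockout acted differently in the 2 lines was tested as an interaction over all 18 libraries. For *Kmt2c*, the log2 fold change in 67NR exceeded that in 168FARN by 2 for *Igfbp6* (SE 0.56, adjusted p = 0.029) and was lower for *Igfbp7*, with a difference of -2.56 (SE 0.83, adjusted p = 0.06), where 16% of genes were called. For *Kmt2d*, the difference was 2.02 for *Igfbp6* (SE 0.56, adjusted p = 0.039) and -2.01 for *Igfbp7* (SE 0.83, adjusted p = 0.18), where 10.6% of genes were called. *Igf2r* differed by -1 for *Kmt2c* (SE 0.57, adjusted p = 0.33) and by -0.53 for *Kmt2d* (adjusted p = 0.74), and *Igfbp4* by -0.46 and -0.34 (adjusted p = 0.86 and 0.93). The *Igfbp7* call for *Kmt2c* was lost in 8 of the 12 fits without 1 library, at adjusted p-values of 0.11 to 0.18, and the *Igfbp6* call for *Kmt2d* was lost without 67NR WT replicate 1 (1.88, adjusted p = 0.11). With replicate number as a block, *Igfbp7* was also called for *Kmt2d*, at -1.99 (SE 0.24, adjusted p = 6.4e-06, 28.4% of genes called), and *Igf2r* for *Kmt2c*, at -1.01 (SE 0.2, adjusted p = 0.00076, 34.6% of genes called). Within replicate numbers, *Igf2r* was lower in *Kmt2c* KO than in WT cells in all 3 pairs of 67NR, at log2 ratios of -0.6, -0.73 and -0.98, and higher in all 3 pairs of 168FARN, at 0.17, 0.27 and 0.29.

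**Figure D3:**
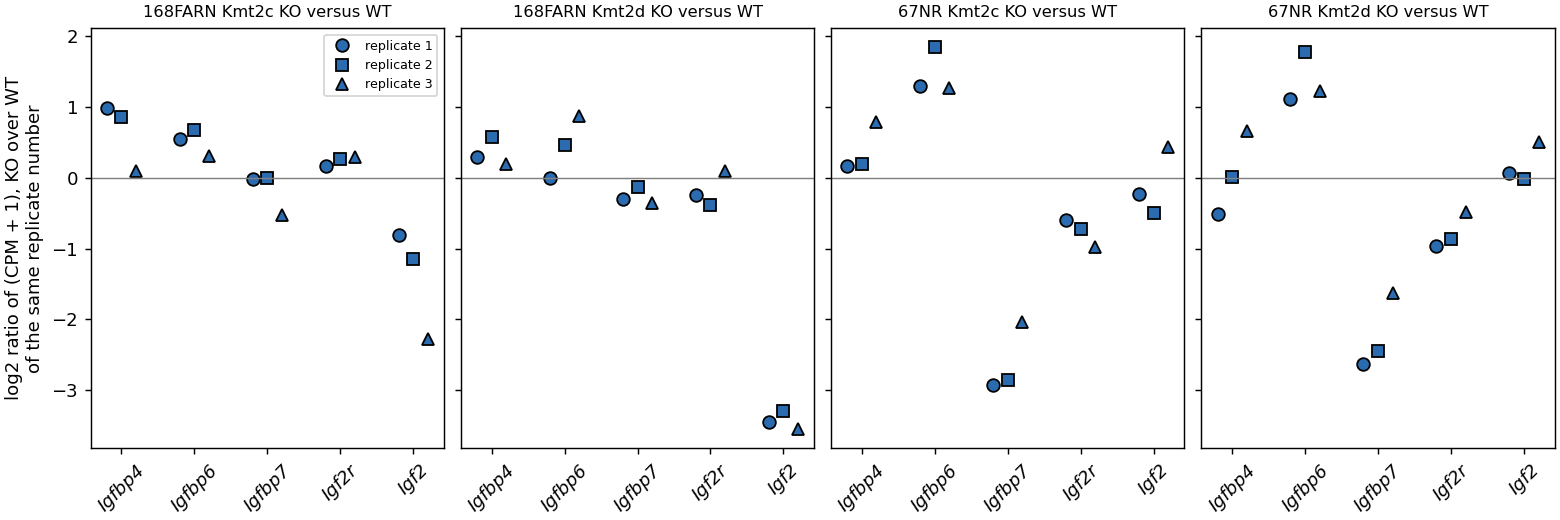
Log2 ratio of CPM + 1 in KO over WT for replicates of the same number, for the 4 expressed members and *Igf2*, in each line and knockout. *Igfbp7* in 67NR lies between -2.93 and -1.63 in all 6 pairs, *Igfbp6* in 67NR between 1.11 and 1.84, and *Igfbp4* in 168FARN *Kmt2c* KO is at 0.99 and 0.85 in replicates 1 and 2 and at 0.09 in replicate 3.

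Ordered by mean level over the 6 groups, the members followed different patterns. For *Igfbp7* the order in mean CPM was 67NR WT (488 ± 93.2), 67NR *Kmt2d* KO (103 ± 18.4), 67NR *Kmt2c* KO (79.1 ± 12.4), 168FARN WT (51.8 ± 28.8), 168FARN *Kmt2c* KO (49.3 ± 31.9) and 168FARN *Kmt2d* KO (43.9 ± 25.4), as mean ± SD over 3 replicates, and beyond the gap below 67NR WT neighbours overlapped. For *Igfbp6* the order was 168FARN *Kmt2c* KO (85.4 ± 32.1), 168FARN *Kmt2d* KO (77.6 ± 10.5), 168FARN WT (58.3 ± 17), 67NR *Kmt2c* KO (3.29 ± 0.604), 67NR *Kmt2d* KO (3.04 ± 0.768) and 67NR WT (0.575 ± 0.372), with gaps between the lines and between the 67NR knockouts and WT. For *Igf2r*, 67NR WT (234 ± 3.98 CPM) was highest, though 168FARN *Kmt2c* KO replicate 2 at 230 CPM reached its range, and the other means, from 123 ± 46.3 CPM in 168FARN *Kmt2d* KO to 172 ± 80.8 CPM in 168FARN *Kmt2c* KO cells, lay within each other's spread. For *Igfbp4*, the 3 groups of 67NR (775 ± 97.1, 1010 ± 176 and 822 ± 249 CPM in WT, *Kmt2c* KO and *Kmt2d* KO) stood above the 3 of 168FARN (291 ± 164, 523 ± 359 and 390 ± 247 CPM), with no gap between neighbours within a line that exceeded the spread.

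Set against each other per kb of exon, *Igfbp7* led in 67NR WT cells at 403 ± 77.4 CPM per kb, next to *Igfbp4* at 328 ± 40.7 CPM per kb. In 67NR *Kmt2c* KO cells *Igfbp4* led at 429 ± 74.9 CPM per kb and *Igfbp7* was at 65.2 ± 10.2 CPM per kb, and in *Kmt2d* KO cells the values were 348 ± 106 and 84.5 ± 15.2 CPM per kb. *Igf2r* was at 24.8 ± 0.416 CPM per kb in 67NR WT and at 14.6 ± 2.13 and 14.6 ± 2.38 CPM per kb in its *Kmt2c* and *Kmt2d* knockouts. In 168FARN WT cells *Igfbp4* was at 123 ± 69.4, *Igfbp6* at 52.4 ± 15.2, *Igfbp7* at 42.7 ± 23.7 and *Igf2r* at 15.4 ± 7.39 CPM per kb (SD, n = 3).

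A list of 53 other genes of the IGF pathway was read by role. In 67NR *Kmt2c* KO cells 43 were tested, of which 3 were called higher and 10 lower, 30.2% in all beside the 35.3% of all genes. Their median log2 fold change was -0.22, against -0.02 over all genes. In *Kmt2d* KO cells 3 were called higher and 9 lower, 27.9% beside 25.5%, with a median of -0.07. Of the ligands *Igf2*, *Ins1* and *Ins2*, *Igf2* alone passed the filter, with log2 fold changes of -0.31 (adjusted p = 0.74) in *Kmt2c* KO and 0.42 (adjusted p = 0.68) in *Kmt2d* KO cells. Among 3 receptors tested, *Lrp1*, an endocytic receptor that also binds IGFBP3, rose by 2.14 (SE 0.29, adjusted p = 0.00054) in *Kmt2c* KO and by 1.68 (SE 0.29, adjusted p = 0.0032) in *Kmt2d* KO cells on the log2 scale. *Insr*, the insulin receptor, fell by 0.81 (SE 0.28, adjusted p = 0.05) in *Kmt2c* KO cells and had a log2 fold change of -0.4 (adjusted p = 0.35) in *Kmt2d* KO cells. *Igf1r*, the signalling receptor for IGFs, had log2 fold changes of 0.43 (adjusted p = 0.048) and 0.55 (adjusted p = 0.026), below the fold threshold.

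Of 7 genes for IGFBP proteinases or their inhibitors, 2 were called higher and 2 lower in *Kmt2c* KO cells of 67NR, and 2 higher and 3 lower in *Kmt2d* KO cells. Over all genes, 17.9% were called higher and 17.4% lower with *Kmt2c* KO, and 13.9% and 11.6% with *Kmt2d* KO. *Pappa2*, whose protein cuts IGFBP5 and IGFBP3, stood at 0.0709, 0.176 and 0.0689 CPM for 67NR WT, 1.46, 0.672 and 2.02 CPM for *Kmt2c* KO replicates and 0.627, 0.736 and 2.01 CPM for those of *Kmt2d* KO. All KO libraries were above all WT libraries at a low level, with log2 fold changes of 3.75 (adjusted p = 0.0033) and 3.44 (adjusted p = 0.0078). *Ctsd*, the lysosomal proteinase cathepsin D, rose by 1.03 (adjusted p = 0.044) and 0.88 (adjusted p = 0.099) on the log2 scale. *Adam12*, a membrane-bound proteinase, fell from 23.2, 23 and 27 CPM in WT to 1.15, 1.18 and 0.282 CPM for *Kmt2c* KO and 9.82, 9.76 and 2.01 CPM for *Kmt2d* KO replicates, with log2 fold changes of -4.69 (adjusted p = 0.00082) and -1.68 (adjusted p = 0.077). *Htra3*, a secreted serine proteinase, fell in *Kmt2d* KO cells by 2.99 on the log2 scale (adjusted p = 0.0091). Its WT libraries lay between 0.646 and 1.47 CPM and its *Kmt2d* KO libraries between 0.0738 and 0.151 CPM, a very low level.

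Among 7 tested relatives that carry the IGFBP domain, 3 were called lower in 67NR with *Kmt2c* KO and 2 with *Kmt2d* KO. Of all genes, 17.4% and 11.6% were called lower in these comparisons. *Wisp1*, a matricellular protein gene of the CCN family, stood at 68.8, 79.9 and 38.6 CPM for WT, 1.46, 0.825 and 1.08 CPM for *Kmt2c* KO replicates and 7.88, 9.96 and 3.54 CPM for those of *Kmt2d* KO. It fell by 5.71 (SE 0.49, adjusted p = 3.6e-05) and by 3.05 (SE 0.43, adjusted p = 0.0011) on the log2 scale. *Wisp1* and *Adam12* were also below their *Kmt2d* KO level when *Kmt2c* was knocked out, with log2 fold changes of -2.66 (adjusted p = 0.036) and -3.02 (adjusted p = 0.086). They were the 2 genes of the list called in that comparison, 4.65% of those tested beside 1.41% of all genes. Of 5 receptor adaptors tested, *Irs1*, which links IGF1R and the insulin receptor to PI3K, fell by 2.36 (SE 0.32, adjusted p = 0.00052) and by 1.71 (SE 0.31, adjusted p = 0.0045). Of 14 genes of the PI3K-AKT cascade, 2 were called lower in *Kmt2d* KO cells, where 11.6% of all genes were called lower, and no call was made for the cascade in *Kmt2c* KO cells, where 35.3% of all genes were called.

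**Figure D4:**
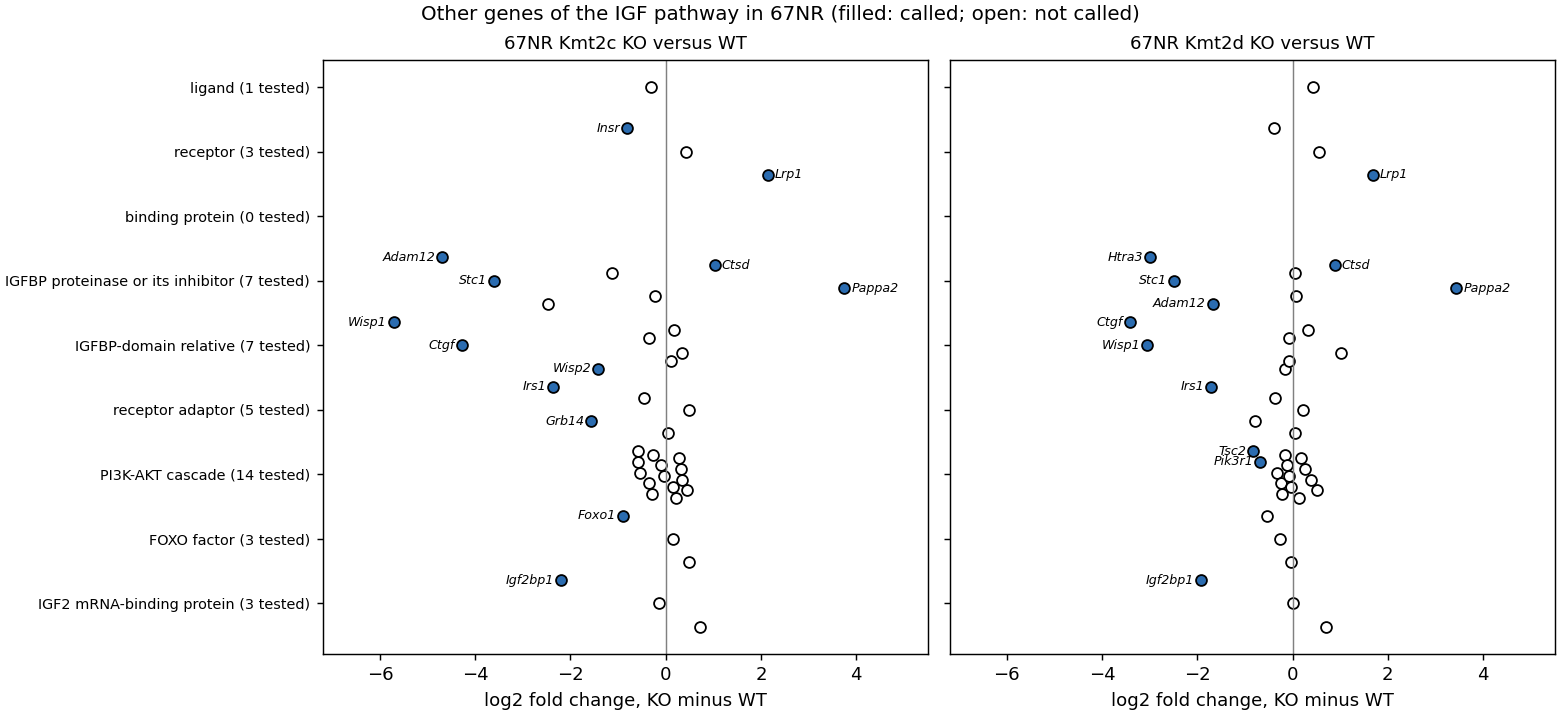
Log2 fold change (KO minus WT) of the 43 tested genes of the IGF pathway in 67NR *Kmt2c* KO and *Kmt2d* KO cells, one row per role, filled and named where called. *Lrp1*, *Pappa2* and *Ctsd* are the filled points above 0 in both panels, and the filled points below 0 number 10 with *Kmt2c* KO and 9 with *Kmt2d* KO.

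In 168FARN 39 genes of the list were tested and 0 were called in either knockout. In edgeR 1 gene had an unadjusted p under 0.05 with *Kmt2c* KO and 3 with *Kmt2d* KO, and DESeq2 called 0 and 3. With replicate number as a block, the *Kmt2c* KO cells had 4 calls higher and 3 lower and the *Kmt2d* KO cells 3 higher and 1 lower, where 7.23% and 5.9% of all genes were called. *Igf2*, the ligand that IGFBP6 and IGF2R prefer, stood at 146, 173 and 64.3 CPM for WT, 82.7, 77.2 and 12.5 CPM for *Kmt2c* KO replicates and 12.4, 16.8 and 4.56 CPM for those of *Kmt2d* KO of 168FARN. All *Kmt2d* KO libraries were below all WT libraries, with a log2 fold change of -3.49 (SE 0.8, adjusted p = 0.22), and with the block *Igf2* was called, at -3.59 (SE 0.29, adjusted p = 0.00021) in *Kmt2d* KO and -1.4 (SE 0.26, adjusted p = 0.013) in *Kmt2c* KO cells. In 67NR *Igf2* stayed between 0.161 and 1.06 CPM in all 9 libraries.

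Between the WT lines, 14 genes of the list were called higher and 9 lower in 67NR among 44 tested, 52.3% in all beside 39.2% of all genes (22.3% higher and 16.9% lower). *Igf2* was 188-fold lower (log2 fold change -7.56, SE 0.84, adjusted p = 3.6e-06), *Lrp1* was lower by a log2 fold change of -1.72 (adjusted p = 0.0042) and *Pik3r2*, a regulatory subunit of PI3K, by -1.18 (adjusted p = 0.0025). *Foxo1*, a transcription factor restrained by AKT, was higher by 2.33 (adjusted p = 1.4e-05) and *Igf1r* by 0.71 (adjusted p = 0.0029). *Wisp1* and *Adam12* were called higher as well, at 38.6 to 79.9 CPM and 23 to 27 CPM in 67NR WT against at most 0.26 and 0.0237 CPM in 168FARN WT libraries. *Insr* had a log2 fold change of 0.37 (adjusted p = 0.39).

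The genes whose levels followed each member most closely were sought over the 18 libraries among 13881 others, by Pearson's r of log2(CPM + 1). The values are descriptions only, because the libraries of a line share their cells, and those of a replicate number in a line share a collection, so the points are not independent. For *Igfbp4* the nearest were *Map1lc3a* (r = 0.95) and *Zfp839* (0.94), for *Igfbp6* *Col6a3* and *Kalrn* (0.98 each), for *Igfbp7* *Bcl9* and *H2-T23* (0.98 each) and for *Igf2r* *Agrn* and *Rnf145* (0.96 each). Between members, r over the 9 libraries of 67NR was -0.93 for *Igfbp6* with *Igfbp7*, 0.91 for *Igf2r* with *Igfbp7* and -0.87 for *Igf2r* with *Igfbp6*. Over the 9 libraries of 168FARN, where replicate 3 was low for *Igfbp4*, *Igfbp7* and *Igf2r*, these 3 had r of 0.94 to 0.95 with each other.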

How the data were processed

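Poly(A) RNA of 18 cultured libraries was sequenced from strand-specific libraries. The authors aligned reads with STAR to mm9 and deposited raw counts per gene, 1 table per line. Labels gave the groups. Replicates of a line were, per the study's methods, collected a passage apart, so p-values measure the spread between passages of the same cells.

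Counts were tested with edgeR 4.0.16 (TMM, filterByExpr, robust quasi-likelihood fit) in R 4.3.3 with limma 3.58.1, per line (12253 and 13665 genes) or over the joined tables (13882 genes), with Benjamini-Hochberg adjustment over all of them. Calls needed an adjusted p under 0.1 together with a log2 fold change beyond 0.6 either way. DESeq2 1.42.0 was an alternative, with size factors, no filter, a replicate block, the compared groups only, an adjusted p under 0.05 without a fold threshold, and each library left out. Runs with DESeq2 and the block, without *Rn45s* and without the third collection were chosen after seeing the data. The fits were tested on simulated data with the same relative spread for every gene and no effect of replicate number. That test therefore does not measure how often changes in these libraries are recovered. Figures and sequences were made with Python 3.11.15, pandas 2.3.3 and matplotlib 3.10.9.

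Replicate numbers paired the samples: deviations from the group means correlated at 0.65 to 0.9 between same-numbered libraries of 168FARN and at 0.35 to 0.72 in 67NR, and the study treated each collection time as a batch. The main fit follows the study in using genotype alone.

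Total counts of 14359760 to 79251530 limit precision for genes of few counts. For 67NR, 27 symbols had been turned into dates, and no member was affected. The members and the lists were chosen with earlier results of these data known. All members are named, with up to 3 pathway genes called in each direction per comparison by smallest p, *Igf2*, *Igf1r*, *Insr*, *Igfbp1*, the targeted genes and the 2 genes most like each member. *Polr2b*, *Airn* and *Rpl26* were added after their values were seen.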

Additional observations from a re-analysis of the deposited data

Results flagged for a closer look

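Effects of a knockout that differed between the lines by the interaction test are given as the log2 fold change in 67NR minus that in 168FARN, at an edgeR adjusted p under 0.1. For *Kmt2c* KO the difference was 2 for *Igfbp6* and -2.56 for *Igfbp7*, and, with replicate number as a block, -1.01 for *Igf2r*. Of 44 tested genes of the pathway list, 2 were called with a higher and 5 with a lower effect in 67NR. That was 15.9% of them, beside 16% of all genes. Not all are named: under the naming rule given above, *Pappa2* differed by 5.84, *Lrp1* by 1.9, *Pik3r1* by -1, *Irs1* by -1.87, *Htra3* by -2.43 and *Insr* by -1.32. For *Kmt2d* KO the difference was 2.02 for *Igfbp6* and, with the replicate block, -1.99 for *Igfbp7*. Of the 44 pathway genes, 2 were called with a higher and 4 with a lower effect in 67NR, 13.6% beside 10.6% of all genes. Under the same naming rule, *Igf2* differed by 3.82, *Pappa2* by 4.68, *Htra3* by -4.72, *Pik3r1* by -1.35 and *Irs1* by -1.95. *Igfbp6* and *Igf2* in 67NR, *Htra3* in 67NR *Kmt2d* KO cells (16 counts over 3 libraries) and *Pappa2* in both lines rest on low counts, and the interaction of *Igfbp7* for *Kmt2c* lost its call in 8 of the 12 fits that left out 1 library.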

How the results depend on the processing

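The calls of *Igfbp6* and *Igfbp7* in both 67NR knockouts held in all 14 alternatives, at log2 fold changes of 2.26 to 3.22 and -2.83 to -2.43 in *Kmt2c* KO and of 2.16 to 3.1 and -2.48 to -2.05 in *Kmt2d* KO cells. Depth limits *Igf1*, *Pappa* and *Igfbp6* in 67NR. The cause was not tested for any change that follows. Shares of all genes called were taken for the main fit and the replicate block only. Counts under the other settings therefore have no such share beside them, and a general rise in calls cannot be told apart.

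With the replicate number as a block, members called rose to 1 in 168FARN *Kmt2c* KO, 4 between the WT lines, 3 in the *Kmt2c* and 2 in the *Kmt2d* interaction, and pathway genes called to 7 and 4 in 168FARN *Kmt2c* and *Kmt2d* KO cells. With the block, 7.23% and 5.9% of all genes were called in 168FARN *Kmt2c* and *Kmt2d* KO, and 34.6% and 28.4% in the interactions. The block changed no other call of a member. DESeq2 with the replicate block gave 1 member and 8 pathway genes in 168FARN *Kmt2c* KO, 4 pathway genes in *Kmt2d* KO, 4 members between the lines and 2 in the *Kmt2d* interaction. DESeq2 alone called 3 pathway genes in 168FARN *Kmt2d* KO cells. *Igfbp4* between the WT lines was called by DESeq2 (1.39, adjusted p = 0.065) and with only the compared groups (1.37, adjusted p = 0.067). With only the compared groups *Igf2r* between the 67NR knockouts was -0.0044. An adjusted p under 0.05 with no fold threshold left 1 member in the *Kmt2c* interaction.

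Without the third collection of both lines, 2 members (*Igfbp4* and *Igfbp6*) and 8 pathway genes were called in 168FARN *Kmt2c* KO, 5 pathway genes in 168FARN *Kmt2d* KO, 20 in 67NR *Kmt2c* KO, and 4 and 3 members in the interactions. *Igfbp7* was then 0.0015 in 168FARN *Kmt2c* KO and *Igfbp4* -0.17 in 67NR *Kmt2d* KO cells, and *Igf2r* in 67NR *Kmt2c* KO, at -0.58, was under the fold threshold.

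With 1 library left out, members called ranged from 2 to 3 in 67NR *Kmt2c* KO, from 1 to 2 in the *Kmt2c* and from 0 to 2 in the *Kmt2d* interaction, and pathway genes from 11 to 17, 8 to 13 and 19 to 21 in 67NR *Kmt2c* KO, 67NR *Kmt2d* KO and between the lines. Without 67NR WT replicate 1, *Igfbp6* lost its *Kmt2d* interaction call (1.88, adjusted p = 0.11), and without 168FARN *Kmt2d* KO replicate 3 *Igfbp7* gained one (-2.35, adjusted p = 0.081). The *Igfbp7* call in the *Kmt2c* interaction was lost without 168FARN WT replicate 2 or 3, 168FARN *Kmt2c* KO replicate 1 or 2, 67NR WT replicate 1 or any 67NR *Kmt2c* KO replicate (adjusted p = 0.11 to 0.18). Uncalled log2 fold changes that crossed 0 had these ranges. In 168FARN *Kmt2c* KO, *Igfbp7* ran from -0.45 to 0.4 and *Igf2r* from -0.1 to 0.59. In 168FARN *Kmt2d* KO, *Igfbp7* ran from -0.61 to 0.21, *Igf2r* from -0.56 to 0.07 and *Igfbp4* from -0.01 to 0.89. Between the 168FARN knockouts, *Igfbp4* ran from -0.03 to 0.89, *Igfbp6* from -0.05 to 0.41 and *Igfbp7* from -0.26 to 0.61. In 67NR, *Igfbp4* in *Kmt2d* KO ran from -0.08 to 0.33, and *Igfbp6* and *Igf2r* between the knockouts from -0.09 to 0.26 and from -0.1 to 0.14. *Igfbp4* in the interactions ran from -0.85 to 0.04 for *Kmt2c* and from -0.69 to 0.2 for *Kmt2d*.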
